A study of Mus musculus with 9 samples.

Results

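The 31 genes described here encode proteins of neutrophil and monocyte granules, secreted antimicrobial and chitinase-like proteins, protease inhibitors, and receptors and enzymes that neutrophils share with monocytes. They were taken as a named list of mouse genes, all 31 were found in the tables by 1 gene ID each, and they were read out of 55487 gene IDs in all. The samples were untreated monocytes sort-purified from C57BL/6 mouse spleen in 3 groups of 3 libraries: Ly6Chi monocytes of wild-type (WT) mice, Ly6Clo monocytes of WT mice, and Ly6Clo monocytes of Cebpa +37-/- mice, called KO here, with homozygous loss of the +37 element of Cebpa. Ly6Chi monocytes of KO mice were not analysed here. The sources used here give neither the ages of the mice nor whether a library came from 1 animal or a pool, so the p-values rest on a spread between libraries that may be in part technical. The series title states the question as the need for C/EBPα, the protein made from Cebpa, in forming Ly6Chi but not Ly6Clo monocytes.

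Granule proteins are made in a fixed order as granulocyte precursors mature. Primary (azurophil) granules are filled first, with myeloperoxidase and serine proteases, and secondary (specific) and tertiary (gelatinase) granules follow, with lactoferrin, cathelicidin and metalloproteases. Ly6Chi monocytes are the classical, inflammatory subset that comes straight from bone marrow precursors, and Ly6Clo monocytes are the patrolling subset of the blood vessels. C/EBP factors bind DNA through a basic leucine zipper, and C/EBPα and C/EBPε are known regulators of primary and secondary granule genes in the bone marrow.

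Each library held 48141590 to 173703361 counts, so 3 counts, used as the floor of detection, equal 0.0173 to 0.0623 CPM by library, where CPM are counts scaled to the size of the library. Levels are given as CPM after TMM scaling, which corrects for differences in library composition. The CPM just given for the floor are before that scaling. Ly6c2, which encodes Ly6C2, stood at 862 to 1060 CPM in the WT Ly6Chi libraries and at 2.14 to 5.33 CPM in the 6 Ly6Clo libraries. As the groups are defined by Ly6C, this is no independent check of their purity. Cebpa, the gene targeted through its element, stood at 31.5, 51.3 and 51.6 CPM in WT Ly6Chi and 18.2, 17.7 and 19.2 CPM in WT Ly6Clo, and was lower in the KO libraries at 4.04, 2.89 and 2.74 CPM. WT Ly6Chi replicate 3 stood apart by sex-linked genes, with 1471 counts of Xist against 0 to 2 in every other library, and 1 count in all of Ddx3y, Eif2s3y, Kdm5d and Uty against 9167 or more. Its values for the 31 genes lay between those of the other WT Ly6Chi libraries for 17 of them, and were lowest for 9, highest for 3 and tied for 2. These places were not counted over all genes. Results without WT Ly6Chi replicate 3 are given below. WT Ly6Chi replicate 1 stood apart by the 8 Ly6Clo monocyte markers, which summed to 1310 CPM there against 5630 and 6100 CPM in replicates 2 and 3.

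The sequences upstream of 6 genes are shown, chosen after the search described next: Ltf, Ngp, Mmp8, Fcnb and Chil4 fell in WT Ly6Clo monocytes and hold a match to a C/EBP motif, and Chil3 is set beside its close copy Chil4 without one. They are the bases before the RefSeq start site (GRCm38.p6), ended where the gene begins in the deposited tables, and printed 5′ to 3′ on the strand of the gene. Capitals mark matches to the C/EBP half-site letters TTGCNNAA or their reverse complement TTNNGCAA. Ltf (lactoferrin) is read from chr9:111019042-111019270 (plus strand), Ngp (neutrophilic granule protein) from chr9:110419558-110419746 (plus), Mmp8 (neutrophil collagenase) from chr9:7558179-7558428 (plus), Fcnb (ficolin B) from chr2:28084886-28085128 (minus), and Chil3 and Chil4 (chitinase-like lectins, also Ym1 and Ym2) from chr3:106167565-106167814 and chr3:106219508-106219729 (both minus).
Ltf: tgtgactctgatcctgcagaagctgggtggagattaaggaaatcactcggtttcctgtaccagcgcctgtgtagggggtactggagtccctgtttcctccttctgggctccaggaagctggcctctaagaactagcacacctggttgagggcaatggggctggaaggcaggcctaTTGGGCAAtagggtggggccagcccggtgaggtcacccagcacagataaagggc
Ngp: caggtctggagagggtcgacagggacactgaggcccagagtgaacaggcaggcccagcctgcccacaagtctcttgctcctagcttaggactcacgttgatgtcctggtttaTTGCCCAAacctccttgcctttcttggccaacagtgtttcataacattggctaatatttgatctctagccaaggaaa
Mmp8: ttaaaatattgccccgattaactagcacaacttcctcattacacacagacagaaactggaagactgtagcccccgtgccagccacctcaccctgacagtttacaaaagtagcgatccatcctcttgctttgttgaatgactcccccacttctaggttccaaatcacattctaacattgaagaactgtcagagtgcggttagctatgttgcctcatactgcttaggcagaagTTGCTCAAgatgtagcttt
Fcnb: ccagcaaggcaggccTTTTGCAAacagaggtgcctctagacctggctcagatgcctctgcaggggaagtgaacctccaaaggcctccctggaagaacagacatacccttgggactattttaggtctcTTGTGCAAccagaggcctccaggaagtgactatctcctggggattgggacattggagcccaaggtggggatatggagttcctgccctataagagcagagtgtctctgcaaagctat
Chil3: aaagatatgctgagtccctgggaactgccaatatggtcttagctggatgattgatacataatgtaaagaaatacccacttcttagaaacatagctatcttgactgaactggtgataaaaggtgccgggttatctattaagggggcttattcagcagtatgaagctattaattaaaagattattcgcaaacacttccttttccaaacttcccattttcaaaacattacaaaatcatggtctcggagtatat
Chil4: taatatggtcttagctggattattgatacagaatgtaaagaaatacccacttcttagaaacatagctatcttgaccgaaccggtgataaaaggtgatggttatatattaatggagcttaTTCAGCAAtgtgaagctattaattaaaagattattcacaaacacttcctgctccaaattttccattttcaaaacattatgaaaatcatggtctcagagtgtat

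RefSeq promoter entries were matched for 28 of the 31 genes, as 29 windows of 250 bases, since Gfi1 has 2 start sites. The letters TTGCNNAA, searched on both strands, were in 10 of the 29 windows (34.5%) and in 3142 of 32851 windows of all genes (9.56%). The 10 windows belong to Anxa1, Chil4, Fcnb, Gfi1, Lcn2, Ltf, Mmp8, Ngp, Retnlg and Slpi. The windows of Camp, Cd177, Chil3, Lyz2, Mcemp1 and Prtn3, which also fell in WT Ly6Clo, hold none. In Ltf the match TTGGGCAA begins 75 bases before the RefSeq start. Ngp has 2 matches, TTGCCCAA at 138 and TTGGGCAA at 11 bases before that start, and the second lies inside the gene as the tables place it. Fcnb also has 2, TTTTGCAA at 235 and TTGTGCAA at 123 bases before the start. The full palindrome TTGCGCAA, which the first motif contains, was in 0 of the 29 windows and in 54 of all (0.164%). A match describes these letters in these windows and was not tested as a binding site. The windows of Chil3 and Chil4 were 90.5% identical over 222 aligned columns, yet of that pair Chil4 alone holds a match, TTCAGCAA at 131 bases before the start.

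Several members are neighbours. Prtn3 and Elane lie 3.1 kb apart on chromosome 10, Fpr1 and Fpr2 lie 3.9 kb apart on chromosome 17, Chil3 and Chil4 lie 33.9 kb apart on chromosome 3, and Camp, Ngp and Ltf follow each other on chromosome 9 with gaps of 570.1 and 596.3 kb. The longest transcripts of Chil3 and Chil4 were 94.3% identical and those of Lyz2 and its non-member copy Lyz1 95.8% identical, with 0 exactly shared windows of 150 bases, the read length, in either pair. The sources used here do not say how reads with several possible origins were assigned, so values of these pairs are less certain, as are those of Mpo, Prtn3 and Gfi1, whose exons overlap a gene on the opposite strand, and of Fpr2, Slpi and Olfm4, whose exons overlap one on the same strand.

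**Figure D1:**
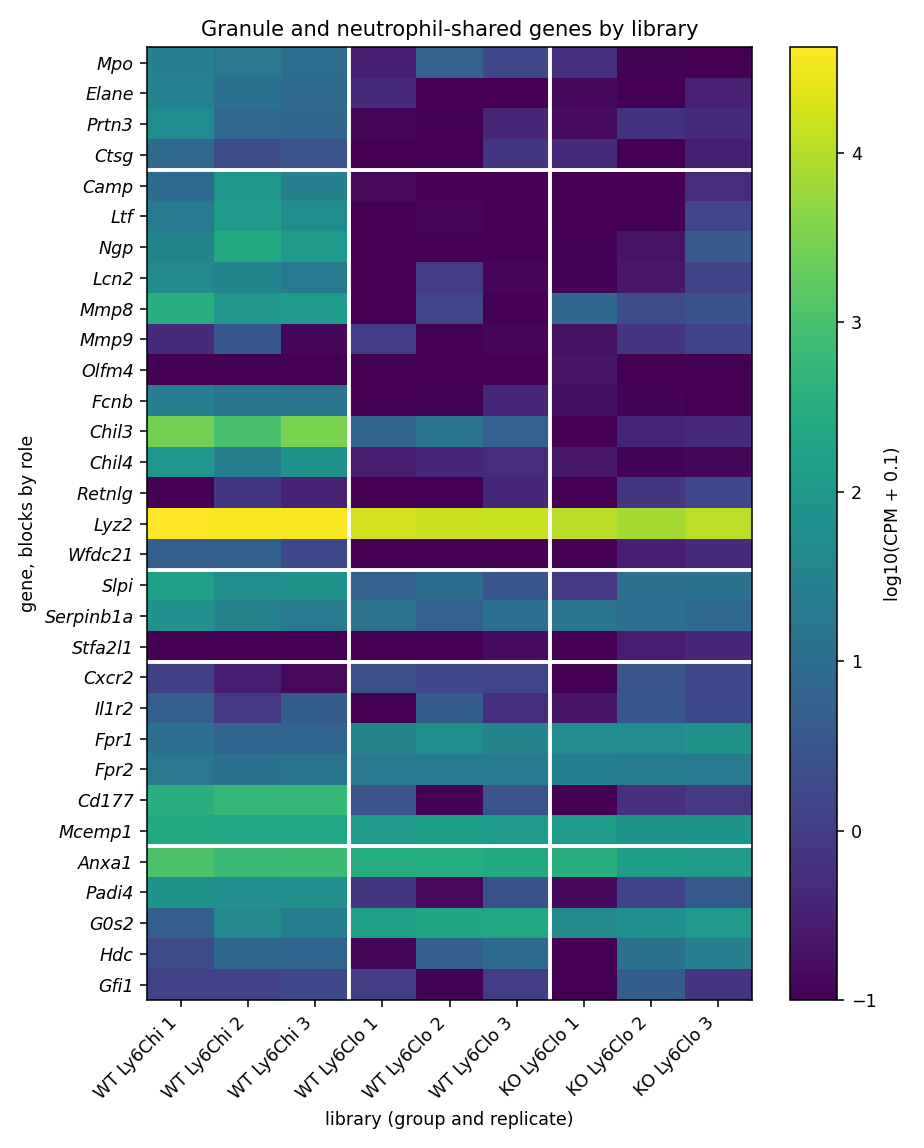
Level of each of the 31 genes (rows, in blocks of primary granule, secondary granule and secreted, protease inhibitor, receptor, and intracellular genes) in each of the 9 libraries (columns), as log10(CPM + 0.1). Lyz2 is the brightest row in every library, Fpr1 and G0s2 are brighter in the 6 Ly6Clo libraries than in WT Ly6Chi, and Olfm4 and Stfa2l1 are near the floor throughout.

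In WT mice, most of these genes were lower in Ly6Clo than in Ly6Chi monocytes. Of the 29 members with enough counts to test, 12 fell and 2 rose in Ly6Clo, that is 14 of 29 (48.3%), against 643 of 18341 genes overall (3.51%, with 1.62% lower and 1.88% higher). At an unadjusted p under 0.05 there were 20 of 29 members and 18.2% of all genes. The median log2 fold change was -4.02 over the 29 members and 0 over all genes, and 21 members had every WT Ly6Clo library below every WT Ly6Chi library, a separation seen for 14.7% of all genes, while 4 had them all above (13.6% of all genes, 28.3% in either direction). The 9 of 12 tested secondary granule and secreted genes that fell were Camp, Ltf, Ngp, Mmp8, Fcnb, Chil3, Chil4, Lyz2 and Wfdc21, beside 1 of 4 primary granule genes (Prtn3), 2 of 6 receptors (Cd177 and Mcemp1), 0 of 2 protease inhibitors and 0 of 5 intracellular genes. The risers were Fpr1 and G0s2. Olfm4 and Stfa2l1 were not tested: Olfm4 had 6 counts, all in KO Ly6Clo, and Stfa2l1 had 3 counts in WT Ly6Clo and 42 in KO Ly6Clo.

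The primary granule genes were detected in every WT Ly6Chi library. Mpo (myeloperoxidase, which makes hypochlorous acid) stood at 27.4, 16.6 and 10.4 CPM in WT Ly6Chi, at 0.202, 6.10 and 1.47 CPM in WT Ly6Clo, and in the KO libraries at 0.512, 0.00701 and 0 CPM. Elane (neutrophil elastase) stood at 30.8, 13.4 and 8.70 CPM in WT Ly6Chi, was at 0 in 2 of the WT Ly6Clo libraries with 0.367 CPM in the other, and stood at 0.0310, 0 and 0.228 CPM in the KO libraries. Prtn3 (proteinase 3) stood at 54.8, 8.14 and 7.72 CPM in WT Ly6Chi and at 0.0183, 0.00663 and 0.306 CPM in WT Ly6Clo, with 0.0466, 0.582 and 0.386 CPM in the KO libraries. Every WT Ly6Chi library exceeded every Ly6Clo library for these genes, but replicate 1 was the highest WT Ly6Chi library for each, by most for Prtn3. Ctsg (cathepsin G) was lower throughout, at 8.21, 2.07 and 2.98 CPM in WT Ly6Chi, at 0, 0 and 0.687 CPM in WT Ly6Clo and, in the KO libraries, at 0.404, 0 and 0.211 CPM. Prtn3 fell by 7.87 ± 1.66 (SE) on the log2 scale in WT Ly6Clo (edgeR, adjusted p = 0.0373), while Elane (log2 fold change -7.26 ± 1.97, adjusted p = 0.0872), Ctsg (-4.30 ± 2.10, 0.323) and Mpo (-2.80 ± 1.49, 0.366) did not pass. The Prtn3 call was kept in 6 of 17 alternative analyses and lost without WT Ly6Chi replicate 1, among others, with adjusted p-values from 0.00212 to 0.121.

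Camp, Ltf and Ngp, on chromosome 9, were found in WT Ly6Chi and hardly at all in WT Ly6Clo monocytes. Camp (the cathelicidin precursor) stood at 9.28, 88.2 and 28.4 CPM in WT Ly6Chi and had 2 counts in the 3 WT Ly6Clo libraries together. Ltf (lactoferrin, which binds iron) stood at 20.9, 121 and 55.0 CPM in WT Ly6Chi and had 3 counts in WT Ly6Clo. Ngp (a cystatin-related secondary granule protein) stood at 35.0, 256 and 104 CPM in WT Ly6Chi and had 0 counts in all WT Ly6Clo libraries. Replicate 2 was thus the highest WT Ly6Chi library for each, and the groups did not overlap. By pooled counts Camp was 5180-fold lower in WT Ly6Clo (95% counting interval 1430 to 42800) and Ltf 5420-fold lower (1860 to 26300). Ngp was at least 2990-fold lower, taking the floor of 3 counts in each WT Ly6Clo library. Adjusted p-values (edgeR) were 0.0214 for Camp, 0.0253 for Ltf and 0.0419 for Ngp. Counting intervals and floors cover counting error only, since PCR copies cannot be told from separate molecules.

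Mmp8 stood at 344, 87.4 and 121 CPM in WT Ly6Chi against 0, 1.37 and 0 CPM in WT Ly6Clo, and fell by 8.44 ± 1.55 on the log2 scale (edgeR, adjusted p = 0.0219). Fcnb (a lectin that recognises microbial sugars) stood at 24.8, 15.7 and 14.6 CPM against 0, 0.00663 and 0.325 CPM, and fell by 7.48 ± 1.52 (adjusted p = 0.0319). Wfdc21, a small whey acidic protein domain gene, stood at 4.85, 5.36 and 1.61 CPM in WT Ly6Chi and at 0 in all WT Ly6Clo libraries, so it was at least 89.4-fold lower (adjusted p = 0.0344). The Wfdc21 call was kept in 8 of 17 alternative analyses, with adjusted p-values from 6.82e-08 to 0.104, and was lost without any 1 of the 6 libraries compared, without KO replicate 2 and with the term for library number runs, among others. Lcn2 (neutrophil gelatinase-associated lipocalin, which binds bacterial siderophores) did not pass, with 47.6, 34.7 and 19.1 CPM against 0, 0.895 and 0.0191 CPM (adjusted p = 0.0856), although its groups did not overlap. Mmp9 (gelatinase B, of the tertiary granule) reached 3.48 CPM at most, Retnlg (a resistin-like secreted protein) 1.44 CPM, and both groups of WT libraries overlapped for each.

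The chitinase-like genes and lysozyme gave the steadiest differences. Chil3 stood at 2870, 1000 and 3190 CPM in WT Ly6Chi and at 8.05, 14.5 and 5.71 CPM in WT Ly6Clo, and fell by 7.96 ± 0.91 on the log2 scale (edgeR, adjusted p = 0.00315). Chil4 stood at 88.3, 25.4 and 74.1 CPM against 0.183, 0.331 and 0.420 CPM, and fell by 7.64 ± 0.83 (adjusted p = 0.00255). For both, WT Ly6Chi replicate 2 was the lowest of its group, the reverse of its place for Camp, Ltf and Ngp. Lyz2 (lysozyme M, which cuts bacterial cell walls) stood at 42100, 37100 and 38000 CPM in WT Ly6Chi and at 17000, 15200 and 14400 CPM in WT Ly6Clo, a fall of 1.33 ± 0.17 (adjusted p = 0.0052). Of all counts, Lyz2 took 3.69 to 4.75% in the WT Ly6Chi libraries, 1.32 to 1.70% in WT Ly6Clo and 0.71 to 1.20% in the KO libraries. These 3 genes and Fpr1 were called in all 17 alternative analyses of this comparison.

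**Figure D2:**
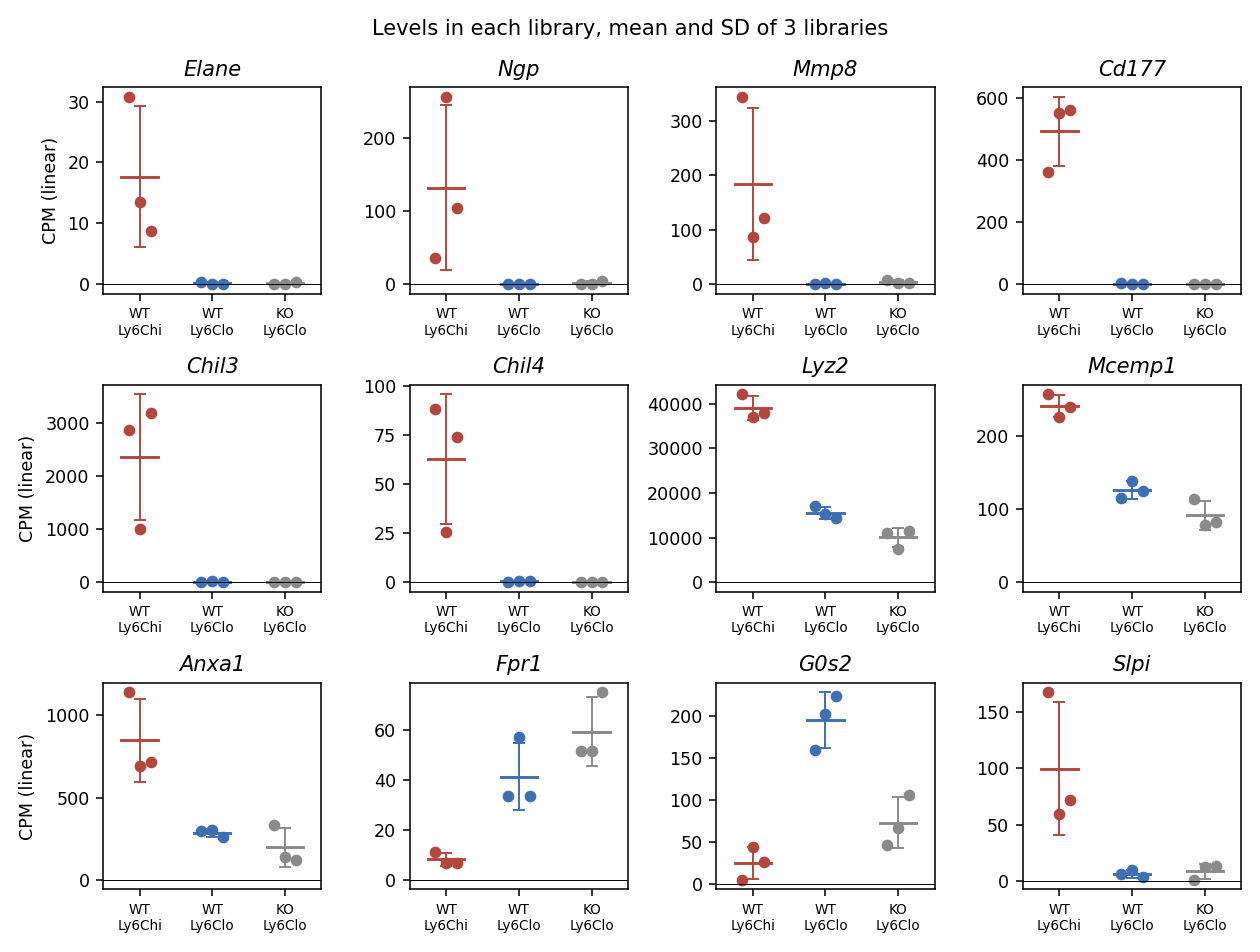
CPM (linear axes, a separate scale for each gene) of 12 genes in the 9 libraries. Points are libraries, in replicate order from left to right within a group, and horizontal lines and bars are the mean and SD of 3 libraries. Fpr1 and G0s2 are above WT Ly6Chi in every Ly6Clo library, and the other 10 genes are below it in every Ly6Clo library.

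Among the receptors and intracellular genes the directions were mixed. Cd177 (a surface glycoprotein of neutrophil subsets that holds proteinase 3) stood at 362, 550 and 561 CPM in WT Ly6Chi and at 2.97, 0.0133 and 2.69 CPM in WT Ly6Clo, and fell by 8.06 ± 1.56 on the log2 scale (edgeR, adjusted p = 0.0264). Mcemp1 (a mast cell expressed membrane protein) fell less, by 0.93 ± 0.18 (adjusted p = 0.0264), from 257, 226 and 240 CPM to 115, 139 and 125 CPM. Fpr1 (formyl peptide receptor 1, which senses bacterial peptides) rose by 2.34 ± 0.32 on the log2 scale (adjusted p = 0.00685), from 11.1, 6.63 and 6.68 CPM to 33.5, 56.9 and 33.4 CPM. Its neighbour Fpr2 stood at 17.3, 12.2 and 14.7 CPM against 19.6, 20.8 and 21.0 CPM and did not pass (0.47 ± 0.22, adjusted p = 0.305). G0s2 (an inhibitor of the lipase ATGL) rose by 2.97 ± 0.67 (adjusted p = 0.0469), from 4.92, 43.4 and 26.4 CPM to 159, 202 and 224 CPM. Cxcr2 (a receptor for neutrophil-attracting chemokines) and Il1r2 (the decoy receptor for interleukin 1) stayed at or under 2.86 and 4.83 CPM in every library.

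Other members separated the WT groups without passing the test. Anxa1 (annexin A1, an inhibitor of leukocyte migration) stood at 1140, 691 and 715 CPM in WT Ly6Chi and at 296, 303 and 259 CPM in WT Ly6Clo (log2 fold change -1.57 ± 0.38, edgeR adjusted p = 0.0599). Padi4 (the citrullinating enzyme of neutrophil extracellular traps) stood at 78.2, 59.3 and 65.4 CPM against 0.678, 0.0398 and 2.48 CPM (-6.02 ± 1.57, adjusted p = 0.0758). Of the protease inhibitors, Slpi, which inhibits elastase and cathepsin G, stood at 99.9 ± 59.2 CPM (SD, n = 3) against 6.15 ± 3.37 CPM (adjusted p = 0.0546), and Serpinb1a, which inhibits the granule serine proteases, at 41.6 ± 26.3 CPM against 10.3 ± 4.01 CPM (adjusted p = 0.0617). Gfi1 (a transcriptional repressor needed for neutrophil formation) stood at 1.14 to 1.65 CPM in WT Ly6Chi and at 0.00663 to 0.955 CPM in WT Ly6Clo (adjusted p = 0.808).

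The count of 14 calls rested on all 6 libraries compared: it was 7 without WT Ly6Chi replicate 1, 4 without replicate 2 and 4 without replicate 3, and 4, 7 and 6 without WT Ly6Clo replicates 1, 2 and 3. Of 17 alternative analyses, 12 kept the calls of Fcnb and Cd177, and 11 kept those of Camp, Ltf and Mmp8. Ngp and Mcemp1 kept theirs in 10 and G0s2 in 9. G0s2 lost its call in the fit of the 2 groups compared, and Camp, Ltf, Ngp and Mmp8 lost theirs with limma-voom. The library numbers form 2 runs, and with a term for them 13 members were called. Each run holds 1 library of one WT group, and since the groups of all 14 called members are fully apart, their direction within a run is fixed.

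**Figure D3:**
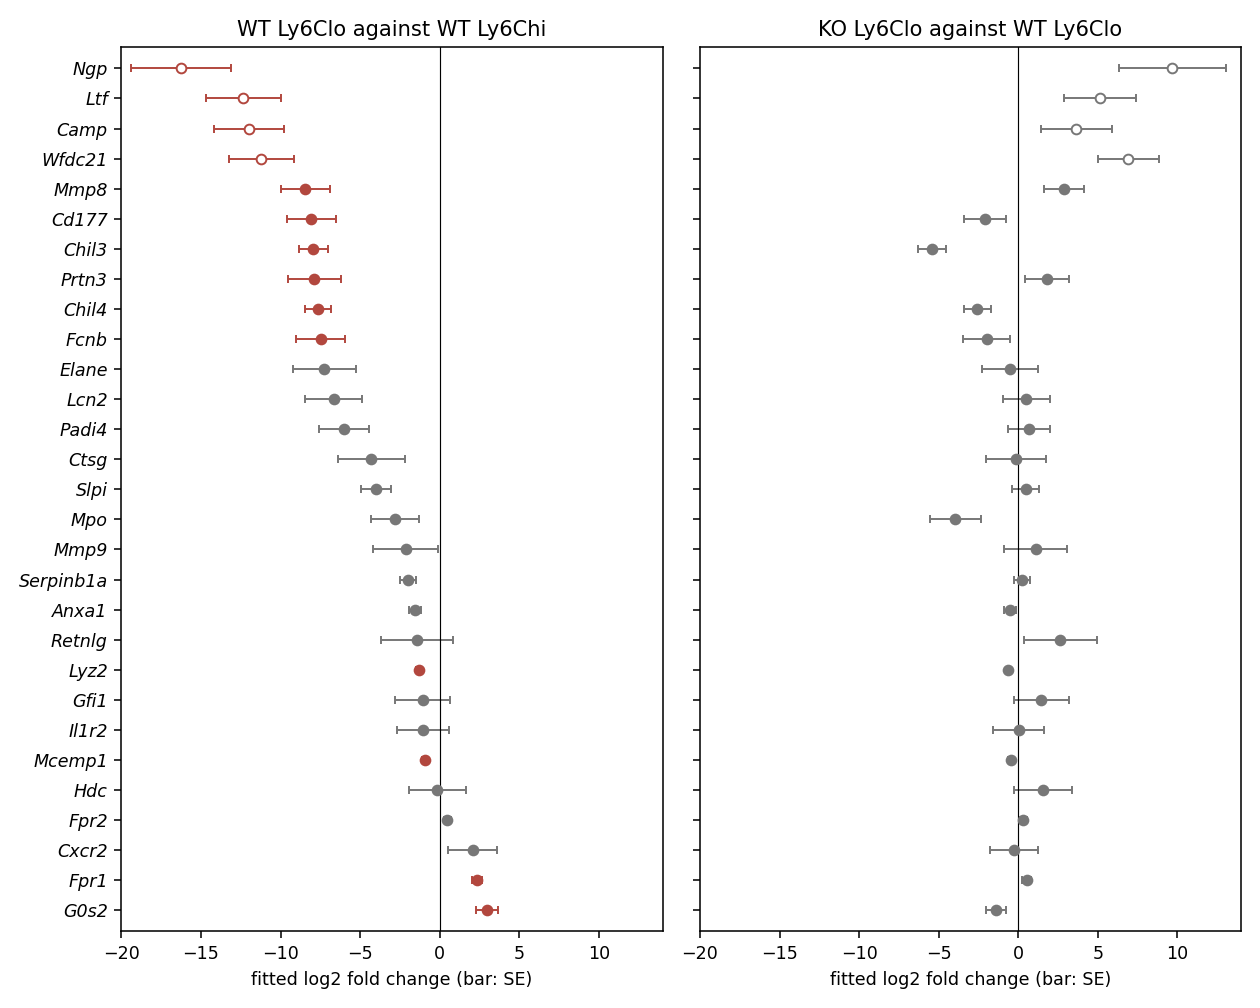
Fitted log2 fold changes (points) with their standard errors (bars) of the 29 tested members, for WT Ly6Clo against WT Ly6Chi (left) and KO Ly6Clo against WT Ly6Clo (right). Red marks the 14 genes past an adjusted p of 0.05, all in the left panel; open points are genes with at most 3 counts in the WT Ly6Clo group, whose fitted values depend on a prior count and are no measure of size.

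Within the WT Ly6Chi group the granule genes fell into different orders by library. All 4 primary granule genes were highest in replicate 1, where they summed to 121 CPM, against 40.2 and 29.8 CPM in replicates 2 and 3. The secondary granule and secreted genes did not share 1 order: Mmp8, Lcn2, Fcnb, Chil4 and Lyz2 were also highest in replicate 1, Camp, Ltf, Ngp, Wfdc21, Mmp9 and Retnlg in replicate 2, and Chil3 in replicate 3. Cd177 was highest in replicate 3 too. The highest WT Ly6Chi library exceeded the lowest by 9.50 times for Camp, 7.31 for Ngp, 7.10 for Prtn3 and 5.79 for Ltf, but by 1.13 times for Lyz2, 1.14 for Mcemp1 and 1.32 for Padi4. In total 18 of the 29 members detected in this group were highest in replicate 1, 8 in replicate 2 and 3 in replicate 3. The same counts over all genes were not made, so this order cannot be called particular to the members. Over all genes with enough counts, replicate 1 differed from replicates 2 and 3 by a chi-square per gene of 218 and 248. Between replicates 2 and 3 it was 49.1. Cebpe, which encodes C/EBPε, was even across these libraries at 5.44, 5.90 and 5.57 CPM. Replicate 1 is also the library with the lowest sum of Ly6Clo markers, and it is alone in its group in 1 of the 2 runs of library numbers. The part of either in the order of the granule genes was not tested.

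**Figure D4:**
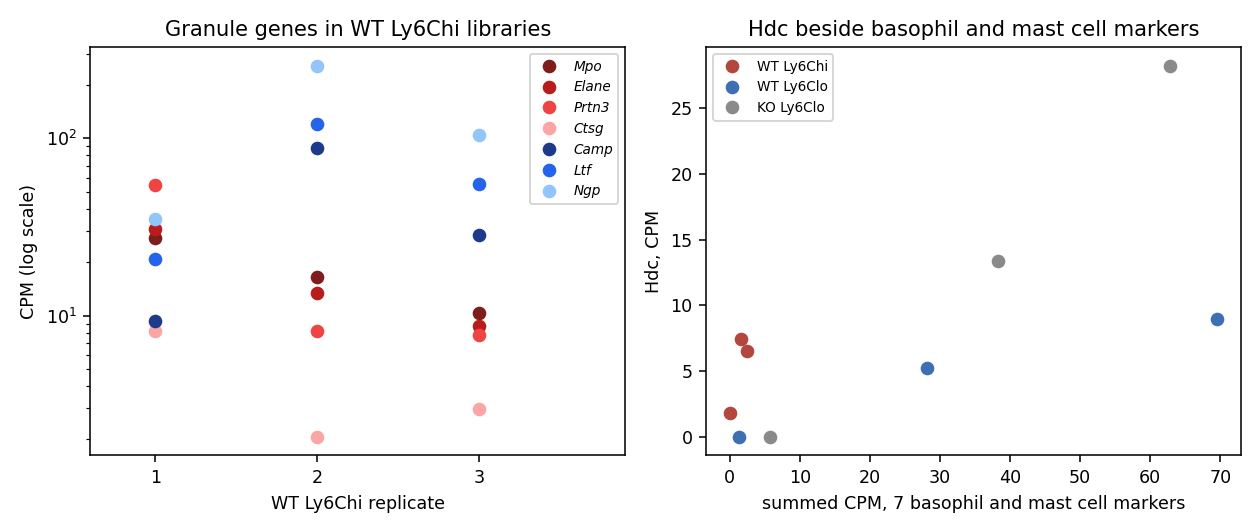
Left: CPM (log axis) of 4 primary granule genes (reds) and of Camp, Ltf and Ngp (blues) in the 3 WT Ly6Chi libraries; the reds are highest in replicate 1 and the blues in replicate 2, while other secondary granule genes, not drawn, were highest in replicate 1. Right: CPM of Hdc against the summed CPM of 7 basophil and mast cell markers, 1 point a library; in each group both are lowest in replicate 1.

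The next comparison asks whether the Cebpa element changes these genes within Ly6Clo monocytes. By edgeR's quasi-likelihood test 0 of 29 members passed in KO against WT Ly6Clo, where 13 of 18341 genes did (0.0709%, with 0.0109% higher and 0.06% lower). At an unadjusted p under 0.05 there were 9 of 29 members, against 1130 of all genes (6.16%). Of these members Chil3, Chil4, Lyz2, Mcemp1 and Mpo were lower in KO, and Ngp, Ltf, Mmp8 and Wfdc21 were higher. DESeq2 called 4 members, with Ngp and Wfdc21 higher and Chil3 and Chil4 lower in KO, and limma-voom called 0. Chil3 had the smallest p-value among the members: 8.05, 14.5 and 5.71 CPM in WT Ly6Clo against 0, 0.281 and 0.369 CPM in KO, with a log2 fold change of -5.41 ± 0.86 (edgeR, adjusted p = 0.0858). The KO libraries were all below the WT libraries for 5 members (Chil3, Chil4, Lyz2, Mcemp1 and G0s2), where 5.7% of all genes are, and all above for 3 (Ngp, Mmp8 and Fpr2), where 5.22% are (10.9% in either direction). The median log2 fold change of the members was 0.31, beside 0.03 for all genes.

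Of the other separated members, Chil4 stood at 0.140, 0.0140 and 0.0176 CPM in KO, below 0.183 to 0.420 CPM in WT Ly6Clo, with 12 counts in all behind the KO values. Lyz2 stood at 11100, 7460 and 11500 CPM in KO against 14400 to 17000 CPM (log2 fold change -0.63 ± 0.17, edgeR adjusted p = 0.464). G0s2 stood at 46.3, 66.8 and 106 CPM in KO against 159 to 224 CPM (-1.42 ± 0.63, adjusted p = 0.811). Mcemp1 stood at 114, 78.0 and 82.3 CPM against 115 to 139 CPM, with KO replicate 1 just under the lowest WT library (adjusted p = 0.717). Mmp8 stood at 7.31, 1.88 and 2.51 CPM in KO against 0, 1.37 and 0 CPM (adjusted p = 0.797). Fpr2 stood at 30.2, 24.4 and 21.6 CPM against 19.6 to 21.0 CPM (adjusted p = 1). For Mmp8 and Fpr2 the lowest KO library lay just above the highest WT Ly6Clo library.

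Counts of Ngp, Ltf and Camp in KO Ly6Clo came mostly from replicate 3, whereas Mmp8, Fcnb and Chil4 were highest in KO replicate 1. Ngp stood at 0.0155, 0.0982 and 4.07 CPM in KO replicates 1, 2 and 3 and at 0 in WT Ly6Clo, so its mean was at least 31.7-fold higher against the floor (edgeR, adjusted p = 0.70). Ltf stood at 0, 0 and 1.4 CPM, and its 80 KO counts against 3 in WT Ly6Clo give a ratio of 26.0 (95% counting interval 8.60 to 129, adjusted p = 0.807). Camp stood at 0, 0 and 0.421 CPM, a ratio of 11.7 (2.91 to 102, adjusted p = 0.98). Wfdc21 stood at 0, 0.196 and 0.404 CPM, at least 4.54-fold higher against the floor (adjusted p = 0.534). KO replicate 3 was the highest of its group for Ngp, Ltf, Camp and Wfdc21, as for Lcn2 (1.30 CPM), Cd177 (0.825 CPM) and Padi4 (3.81 CPM), and for 17 of the 31 members altogether. The share of all genes highest in KO replicate 3 was not worked out. The same library had the highest S100a8 and S100a9 of the 6 Ly6Clo libraries, at 9.23 and 14.6 CPM, beside 69.2 to 195 CPM in WT Ly6Chi. Its summed Ly6Chi markers were 134 CPM against 225 and 216 CPM in KO replicates 1 and 2. The sums in WT Ly6Clo, 225 to 261 CPM, are less comparable. They hold Mgst1, which fell from 83.8, 109 and 104 CPM in WT Ly6Clo to 18.0, 9.15 and 10.4 CPM in KO (edgeR, adjusted p = 0.0152). The neutrophil genes Retnlg, Stfa2l1, Stfa1 and Ly6g were also highest of the 6 Ly6Clo libraries in KO replicate 3, at 1.44, 0.316, 0.474 and 0.404 CPM. Other neutrophil genes were highest elsewhere. Cxcr2, Stfa2 and Asprv1 peaked in KO replicate 2 (2.86, 0.217 and 1.16 CPM), and Lrg1 and Pglyrp1 in KO replicate 1 (5.43 and 487 CPM). Csf3r and Ceacam10 peaked in WT Ly6Clo replicate 3, Cebpe and Stfa3 in WT Ly6Clo replicate 1, and Cxcr1 in WT Ly6Clo replicate 2. KO replicate 3 is also alone in its group in 1 of the 2 runs of library numbers. The part of these markers, or of the run, in the values of KO replicate 3 was not tested.

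KO Ly6Clo against WT Ly6Chi monocytes differ in both genotype and subset, which cannot be told apart here, and this comparison shares its WT Ly6Chi libraries with the first. It called 9 of 29 members (31%), 1 higher and 8 lower, against 829 of all genes (4.52%, with 2.06% higher and 2.46% lower), and 22 members against 16.9% of all genes had an unadjusted p under 0.05. The libraries of the groups were apart for 20 members in the lower direction and 3 in the higher, against 11.7% and 11.3% of all genes (22.9% in either direction). Those lower in KO Ly6Clo were Camp, Fcnb, Chil3, Chil4, Lyz2, Cd177, Mcemp1 and Anxa1, and Fpr1 was higher. Chil3 fell by 13.37 ± 1.13 on the log2 scale (edgeR, adjusted p = 0.000506), Lyz2 fell by 1.96 ± 0.18 (adjusted p = 0.000635) and Chil4 fell by 10.22 ± 0.95 (adjusted p = 0.000802). Fpr1, at 51.5, 51.3 and 75.0 CPM in KO, rose by 2.86 ± 0.33 (adjusted p = 0.00212). Mcemp1 fell by 1.4 ± 0.18 (adjusted p = 0.00403), Cd177, at 0, 0.484 and 0.825 CPM in KO, fell by 10.14 ± 1.71 (adjusted p = 0.0121), and Fcnb, at 0.0621, 0.0140 and 0 CPM, fell by 9.47 ± 1.68 (adjusted p = 0.015). Anxa1, at 334, 139 and 122 CPM in KO, fell by 2.09 ± 0.39 (adjusted p = 0.0184). Camp fell by 8.37 ± 1.78 (adjusted p = 0.0326). Without KO replicate 2 the calls came to 5 of 29, and with the term for library number runs to 12. The groups of all 9 called members are fully apart, so their direction within a run is fixed.

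Members that passed in the WT comparison but not here were Prtn3 (adjusted p = 0.0572), Ltf (0.056), Ngp (0.113), Mmp8 (0.0538), Wfdc21 (0.162) and G0s2 (0.251), by edgeR in each case. For the first 5 of these every KO Ly6Clo library was below every WT Ly6Chi library. The direct test of KO against WT Ly6Clo called none of these 6 genes by edgeR (DESeq2 called Ngp and Wfdc21).

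Levels can be compared between genes only per length of exon. On that scale (CPM per kb) Lyz2 led in every group, at 29700 ± 2020 in WT Ly6Chi and 11800 ± 1030 in WT Ly6Clo, and at 7610 ± 1690 in the KO libraries (SD, n = 3). In WT Ly6Chi the next were Chil3 (1440 ± 723), Anxa1 (291 ± 85.8), Cd177 (173 ± 39.4), Mcemp1 (161 ± 10.3) and Ngp (108 ± 92.7), and the last 3 do not differ beyond their spread. In WT Ly6Clo G0s2 (224 ± 37.8), Anxa1 (98.3 ± 8.07), Mcemp1 (84.7 ± 8.29) and Fpr1 (31.2 ± 10.2) followed Lyz2. In KO Ly6Clo the same genes followed in that order, at 83.9 ± 34.9, 68.1 ± 40.4, 61.1 ± 13.1 and 44.8 ± 10.3 CPM per kb, within one another's spread. Without Lyz2, the members summed to 3370 to 5680 CPM in WT Ly6Chi and 659 to 772 CPM in WT Ly6Clo, and to 413 to 601 CPM in the KO libraries.

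Hdc (histidine decarboxylase, which makes histamine and is typical of basophils and mast cells) did not differ between groups by the test, with adjusted p-values from 0.801 to 1 (edgeR). Its levels varied widely inside each: 1.79, 7.47 and 6.53 CPM in WT Ly6Chi, 0.0183, 5.22 and 8.95 CPM in WT Ly6Clo, with 0, 13.4 and 28.2 CPM in the KO libraries. The 7 basophil and mast cell markers summed to 0.107, 1.56 and 2.43 CPM, to 1.28, 28.1 and 69.5 CPM, and to 5.70, 38.3 and 62.8 CPM in the same libraries. Mcpt8, a basophil protease, was 0, 2.03 and 6.61 CPM in WT Ly6Clo, with 0, 4.52 and 9.16 CPM in the KO libraries. In both Ly6Clo groups Hdc is thus lowest in replicate 1 and highest in replicate 3, as the marker sum is. Not every marker kept that order: Cpa3 stood at 1.23, 1.09 and 4.39 CPM in WT Ly6Clo and at 2.45, 6.70 and 5.81 CPM in KO. Markers of other cells were low in replicate 1 too. T and NK cell markers summed to 54.1, 212 and 138 CPM in WT Ly6Clo and to 21.8, 237 and 84.6 CPM in KO. Erythroid markers summed to 402, 3330 and 489 CPM and to 1.23, 7520 and 1380 CPM. The part of any of these in Hdc was not tested. In bulk libraries, more cells of a type and more RNA per cell cannot be told apart.

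Markers of neutrophils that are not among the 31 genes were looked at in the same libraries. The 13 such markers summed to 590 to 833 CPM in WT Ly6Chi and 741 to 873 CPM in WT Ly6Clo, and to 556 to 683 CPM in the KO libraries, with 2 to 6 of them at 0 in each library. The sum came mostly from Csf3r (the receptor for granulocyte colony-stimulating factor, 170 to 473 CPM) and Pglyrp1 (a peptidoglycan recognition protein, 54.6 to 487 CPM). Ly6g, the defining surface antigen of mouse neutrophils, was at 0.0204 to 0.411 CPM in all 9 libraries. Cxcr2, Retnlg and Stfa2l1, which mature neutrophils express highly, were at most 1.06, 0.667 and 0 CPM in the WT Ly6Chi libraries. Their highest values among WT Ly6Clo libraries were 2.42, 0.344 and 0.0573 CPM, and among KO libraries 2.86, 1.44 and 0.316 CPM. S100a8 and S100a9, which encode calprotectin, stood at 69.2 to 137 and 82.3 to 195 CPM in WT Ly6Chi. In WT Ly6Clo S100a8 fell by 7.13 ± 1.07 on the log2 scale (edgeR, adjusted p = 0.0103) and S100a9 fell by 6.33 ± 1.32 (adjusted p = 0.0352). The 6 progenitor markers summed to 39.8 to 79.5 CPM in WT Ly6Chi and to 7.74 to 151 CPM in the Ly6Clo libraries, a sum carried by Kit and Flt3. Between the WT groups 3 of these 6 markers had positive and 3 negative fold changes. Only 1 of them passed, Ms4a3, a marker of granulocyte and monocyte progenitors. Ms4a3 stood at 0.858, 1.63 and 2.12 CPM in WT Ly6Chi and at most at 0.124 CPM in any Ly6Clo library. In WT Ly6Clo it fell by 6.20 ± 1.39 on the log2 scale (edgeR, adjusted p = 0.0471). Within WT Ly6Chi the progenitor markers did not share 1 order. Ms4a3, Kit, Flt3 and Sox4 were lowest in replicate 1, where the 4 primary granule genes were highest. Myb (5.31, 1.71 and 5.31 CPM) and Cd34 (2.22, 2.63 and 1.80 CPM) were not lowest there. The part of progenitors in the levels of the granule genes was not tested.

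Of 20 other granule and phagocyte oxidase genes, 18 were tested, and in WT Ly6Clo against WT Ly6Chi 2 rose (Itgb2 and Pglyrp1) and 2 fell (Lyz1 and Hp). Itgb2 (the β2 integrin chain) rose by 1.16 ± 0.14 on the log2 scale (edgeR, adjusted p = 0.00346) and Pglyrp1 rose by 2.11 ± 0.30 (adjusted p = 0.00759). Lyz1 fell by 1.49 ± 0.25 (adjusted p = 0.0161) and Hp (haptoglobin) fell by 1.88 ± 0.38 (adjusted p = 0.0306). The median of the 18 was -0.20 beside -4.02 for the 29 members and 0 for all genes. KO against WT Ly6Clo gave 0 of 18 calls (3 at an unadjusted p under 0.05).

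Of 12 transcription factor genes of granulocytes and monocytes, 1 passed in WT Ly6Clo against WT Ly6Chi and 1 in KO against WT Ly6Clo, Cebpa in both. Cebpa fell by 1.29 ± 0.26 on the log2 scale between the WT groups (edgeR, adjusted p = 0.0323) and by 2.51 ± 0.27 from WT to KO Ly6Clo (adjusted p = 0.0152). Cebpe stood at 0.385, 0.00663 and 0.0191 CPM in WT Ly6Clo, and in the KO libraries at 0, 0.0771 and 0.0527 CPM. It fell by 6.90 ± 1.59 in KO Ly6Clo against WT Ly6Chi (adjusted p = 0.0441), and did not pass between the WT groups (-5.40 ± 1.47, adjusted p = 0.0885). Among the 31 genes, none passed by edgeR in the KO against WT Ly6Clo comparison in which Cebpa fell.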

How the data were processed

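Each library has 1 deposited table. Its counts are whole, unnormalized reads per gene, per the file headers. CPM, FPKM and TPM stand beside them as deposited by the authors and entered no test. Build GRCm38 (mm10), Salmon 0.8.2, featureCounts 1.4.6-p5 of Subread, STAR 2.5.1a, bcl2fastq, limma and edgeR are named, per the submitters' processing notes, without their roles. Per the labels' protocols, a library held 40000 to 50000 cells, 10 ng of RNA and 12 to 15 PCR cycles, with paired reads of 150 bases. The sources used here give neither strand use in counting nor the sorting gates.

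Counts were tested in R 4.3.3 with edgeR 4.0.16 (filterByExpr with a minimum count of 10, 18341 genes kept, TMM, 1 term per group over 9 libraries, quasi-likelihood test, Benjamini-Hochberg over all genes). A call is an adjusted p under 0.05. The SE of a log2 fold change was worked back from the test, as its size over the square root of the F statistic. It is only a rough guide where a group has few counts. The script was tested on simulated data. Alternatives used DESeq2 1.42.0, limma 3.58.1, RLE scaling, other filters, a fit of 2 groups, library number runs, a replicate block and leaving out each library. Symbols and places came from GENCODE M21, promoters from RefSeq (GRCm38.p6). The members and lists were chosen with earlier results of these data known. By rule, members called in any comparison and the primary granule genes are given by library and other members by group or range; of other lists, up to 4 called genes are named, with Cebpa, Cebpe, Ly6c2, S100a8 and S100a9 always named. Outside this rule, Lcn2, Padi4, Fpr2 and Hdc are given by library, chosen after their values were seen. Named outside it, also after their values were seen, are Ly6g, Stfa1, Stfa2, Stfa3, Cxcr1, Asprv1, Lrg1, Ceacam10, Csf3r, Kit, Flt3, Sox4, Myb, Cd34, Mgst1, Mcpt8 and Cpa3.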

Additional observations from a re-analysis of the deposited data

How the results depend on the processing

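No called member changed direction in any of the 17 alternatives. The groups of the called members are fully apart, so a change of direction was hardly possible and its absence is no support. Members called in KO against WT Ly6Clo (0) became 1 with no filter on low counts (Chil3) and 4 with DESeq2, and stayed at 0 to 0 when each library was left out. Members called in KO Ly6Clo against WT Ly6Chi (9) became 19 with no filter, 14 with a filter of 1 CPM in 3 libraries, 19 with DESeq2 and 14 with limma-voom, and 5 to 11 when a library was left out. Members called between the WT groups (14) ranged from 4 to 17 when a library was left out. Of the calls, Chil3, Chil4, Lyz2 and Fpr1 held in all alternatives of both comparisons with WT Ly6Chi, and Mcemp1 in all of KO Ly6Clo against WT Ly6Chi. Over all genes, KO against WT Ly6Clo (13) gave 54 with no filter, 27 with the 1 CPM filter, 277 with DESeq2, 0 in a fit of the 2 groups compared, and 2 to 21 leaving out libraries. The WT comparison (643) gave 1968 with DESeq2 and 239 to 847 leaving out libraries, and KO Ly6Clo against WT Ly6Chi (829) gave 1950 and 379 to 818. The causes were not tested.

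Replicate numbers were not shown to pair the libraries: correlations of same-numbered deviations were 0.28, 0.19 and 0.05 between the Ly6Clo groups, and KO replicate 3 correlated best with WT replicate 2 (0.10). With the replicate block, 0 members were called in KO against WT Ly6Clo, 14 between the WT groups and 11 between KO Ly6Clo and WT Ly6Chi, beside 13, 949 and 977 of all genes. Between the WT groups the block lost Prtn3 and Wfdc21 and gained Anxa1 and Serpinb1a. Depth limits genes near the floor, such as Olfm4 and Stfa2l1.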
